A study of Mus musculus with 8 samples.

Results

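The kallikrein-kinin system of the young mouse kidney is described here through 7 genes: the kininogens Kng1 and Kng2, tissue kallikrein Klk1, plasma prekallikrein Klkb1, the bradykinin receptors Bdkrb1 and Bdkrb2, and neprilysin, Mme. The genes were picked by symbol, with the low level of Kng2 in knockout kidneys already known, so the comparison of genotypes in these genes is a description and not a test. A row was found for 6 of the 7 among 47729 genes, and 4 of the 6 (Kng1, Kng2, Klk1 and Mme) were abundant enough to enter the fit across 18548 genes. Klkb1 was matched to no row, so its expression is not analysed here.

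RNA-seq had been run on total RNA of whole kidneys taken on postnatal day 8. There were 4 knockout libraries, of genotype Six2Cre+ KCTD1fl/fl, and 4 libraries of control littermates, called wildtype here. The Six2 promoter drives Cre in nephron progenitors, so recombination is directed to the nephron epithelium and not to the collecting duct, stroma, vessels or blood. The sources used here do not give which of the Cre and floxed alleles the littermates carried, and the labels do not say that each library came from another animal, so p-values cover only the spread seen among the libraries.

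Kininogens are secreted precursors from which kallikreins cut short vasoactive peptides, the kinins, such as bradykinin. Tissue kallikrein is made in the kidney mainly by cells of the connecting tubule and is released into the urine. Kinins act through the constitutive B2 receptor and the inducible B1 receptor, which promote natriuresis and vasodilation, and are broken down by membrane peptidases such as neprilysin and angiotensin-converting enzyme on the proximal tubule brush border.

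The libraries held 14457760 to 20741076 counts each. Kctd1 itself ran from 22.4 to 25.8 in knockout and from 28.9 to 32.6 in wildtype, in CPM (counts scaled to library size with TMM factors). The knockout mean was 77.0% of wildtype, and a gene total cannot tell deleted exons from retained ones. Kidney markers were abundant, with the proximal tubule list summing to 4862 to 5266 CPM over all libraries. Knockout 1 stood apart in 31.7 CPM of albumin (Alb), against 0.48 to 1.56 CPM in the other knockouts and 0.10 to 0.94 CPM in wildtype, and in 478 CPM of the water channel Aqp2, against 149 to 202 CPM elsewhere. Ribosomal RNA (Rn18s-rs5) took up 5.39% of knockout 2, more than in any other library. Knockout 2 and wildtype 3 alone carried abundant Xist reads, 81994 and 101295 counts. For Klk1, Mme, Klk8, Serpinf2, Ptgs2 and Cst3, log2 fold changes without 1 of these libraries are given below.

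Kng1 and Kng2 lie next to each other on mouse chromosome 16 (GRCm38). Kng2 (ENSMUSG00000060459) spans chr16:22985854-23029482 on the minus strand and Kng1 (ENSMUSG00000022875) chr16:23057865-23082078 on the plus strand, with 28382 bases between them. The stretch that encodes bradykinin is shown for both genes, since it is the part of the transcript that makes each a kinin source. It was read from the GENCODE transcripts 5′ to 3′, with the 27 bradykinin-coding bases in capitals and 27 coding bases on either side in lower case.
Kng1: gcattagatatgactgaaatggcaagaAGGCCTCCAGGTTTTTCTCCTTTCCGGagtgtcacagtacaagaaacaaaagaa
Kng2: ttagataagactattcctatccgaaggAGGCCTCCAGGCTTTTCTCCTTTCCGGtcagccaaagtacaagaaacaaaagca
The capital bases fall in exon 10 of Kng1-201, at chr16:23078989-23079015, and in exon 10 of Kng2-202, at chr16:22988281-22988307. The stretches differ at 24 of 81 bases, but at only 1 of the 27 capitals, C39T, counted from 1 at the 5′ end of the printed stretch with the Kng2 base first. Both genes therefore encode the same kinin at this place. The stretch is present in 3 of 4 annotated Kng1 transcripts and 4 of 7 annotated Kng2 transcripts. The coding sequences of Kng1-201 and Kng2-202 are identical at 92.7% of 1929 aligned bases, and 860 of the 31-base words of the transcripts occur in both genes, which is 26.5% of those of Kng1 and 30.6% of those of Kng2. Reads from the shared words could not be assigned to 1 gene by sequence, so the split of counts between the kininogens, and above all the low value of Kng1, is uncertain.

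Kng2 was the main kininogen transcript, and its level in knockout kidneys was 52.0% of wildtype. It measured 140.5, 129.8, 137.4 and 142.2 CPM across knockout 1 to 4, against 269.7, 256.6, 261.9 and 268.8 CPM across wildtype 1 to 4. Each knockout library lay below each wildtype library, with a wide gap between the groups and little scatter within either. The means were 137.5 ± 5.49 and 264.3 ± 6.19 CPM (SD, 4 libraries each), a 1.92-fold difference. The fitted log2 fold change, knockout against wildtype, was -0.94 ± 0.06 (SE). The spread between libraries came to 3.99% of the mean in knockout and 2.34% in wildtype, at 1992 to 2857 and 3840 to 5591 counts per library. Leaving out any 1 library kept the log2 fold change between -0.96 and -0.92. In a whole organ, fewer cells of a type and less RNA per cell cannot be told apart, here or in any comparison below.

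Kng1, the second kininogen, was scarce. It measured 3.02, 3.78, 2.83 and 4.13 CPM in the knockouts (1 to 4) and 6.76, 5.41, 4.62 and 4.47 CPM in the wildtypes (1 to 4), from 41 to 83 and 81 to 111 counts. The highest knockout value lay just under the lowest wildtype value, so the groups did not overlap but nearly met. Means were 3.44 ± 0.62 and 5.31 ± 1.05 CPM (SD, 4 libraries each), 64.7% of wildtype, with a log2 fold change of -0.62 ± 0.21 (SE). It stayed between -0.72 and -0.49 with each library left out in turn, the smallest of these without wildtype 1.

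On the authors' TPM scale, which is per transcript length, the kininogens together reached 51.7, 36.4, 49.8 and 55.4 TPM in knockout 1 to 4 and 104, 93.8, 99.0 and 108 TPM in wildtype 1 to 4. The means were 48.3 ± 8.32 and 101 ± 6.25 TPM (SD, 4 libraries each), and the groups did not overlap. Knockout 2 was the lowest, and its TPM values were low across the table: over the tested genes, its median of log2(TPM + 0.1) lay -0.36 from the gene means, against -0.00 to 0.15 in the other libraries. Kng2 made up 98.0% ± 0.37 of the kininogen TPM of the knockouts and 98.4% ± 0.29 of that of the wildtypes (SD, 4 libraries each), with overlapping groups. The composition of the kininogen pool thus differed by about the spread between libraries, while its size differed by far more.

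**Figure D1:**
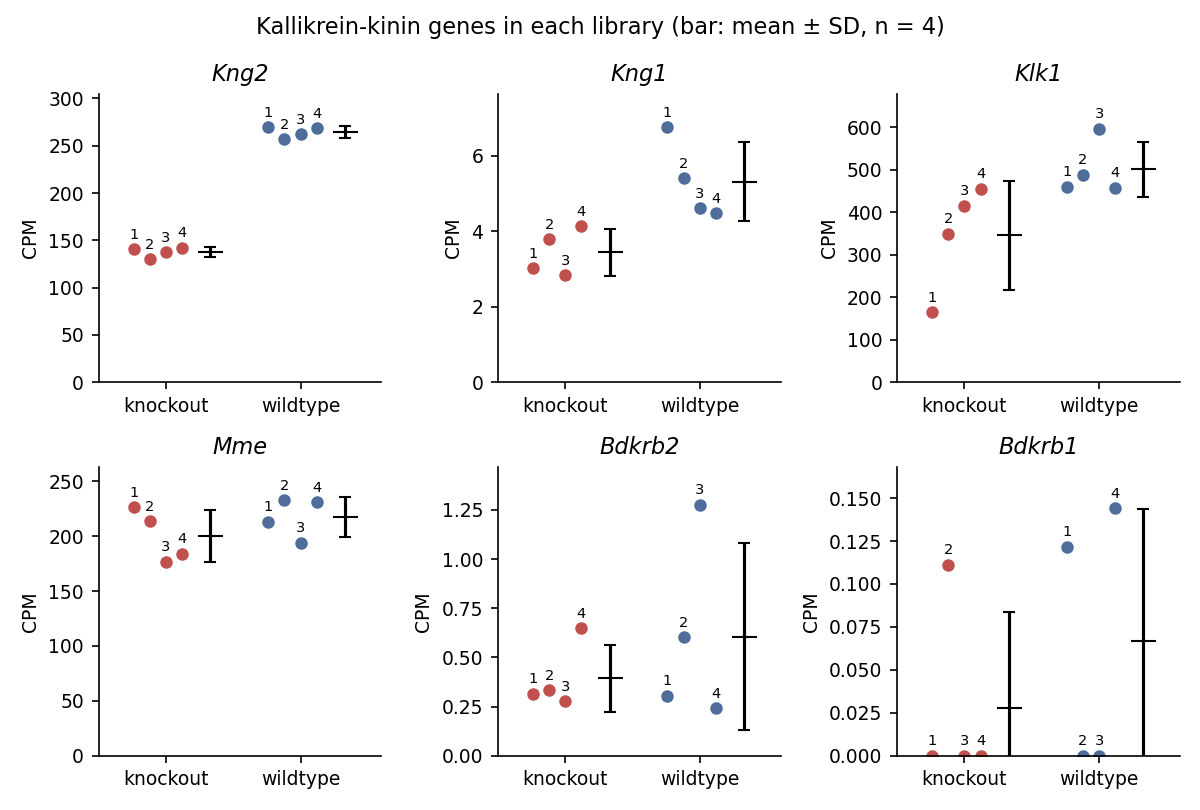
CPM of the 6 genes in each library (y axis, linear, from 0), with knockout in red and wildtype in blue, the library number above each point, and the mean ± SD of 4 libraries as a black bar, cut at 0 for Bdkrb1. Kng2 forms 2 tight groups around 137.5 and 264.3 CPM, Klk1 has a single low library in knockout, and Mme and the receptors overlap.

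Klk1 encodes tissue kallikrein, the enzyme that releases kinin from kininogen. The gene (ENSMUSG00000063903) lies at chr7:44225360-44229618 on the plus strand among its close copies, the Klk1b genes. It measured 164.6, 349.0, 414.8 and 454.7 CPM across knockout 1 to 4, against 460.3, 488.2, 595.9 and 457.7 CPM across wildtype 1 to 4. The groups did not overlap, but knockout 4 came within a few CPM of wildtype 4, and the knockouts were widely spread. Means were 345.8 ± 128.4 and 500.5 ± 65.1 CPM (SD, 4 libraries each), 69.1% of wildtype, and the log2 fold change was -0.53 ± 0.29 (SE).

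The Klk1 difference rests in good part on knockout 1, the library with the high albumin and Aqp2 values. Without it the knockout mean was 406.2 ± 53.3 CPM (SD, n = 3), 81.2% of wildtype, and the log2 fold change was -0.30. The connecting tubule markers, from the segment that makes most tissue kallikrein, summed to 1038 CPM in knockout 1, 1203 to 1388 CPM in the other knockouts and 1296 to 1532 CPM in wildtype. The collecting duct markers summed to 1239 CPM in knockout 1, 784 to 906 CPM in the other knockouts and 846 to 887 CPM in wildtype. Knockout 1 was thus the lowest library in the first sum and the highest in the second. The single connecting tubule markers did not all follow their sum. In knockout 1, S100g, Atp2b4, Calb1 and Kl were at 57.2%, 69.2%, 76.3% and 87.0% of their wildtype means. Trpv5, Trpv6 and Slc8a1 were at 113%, 115% and 147%. The collecting duct sum of knockout 1 includes its 478 CPM of Aqp2. The part of either list in the Klk1 result was not tested.

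Sequence sharing also touches Klk1. Its 31-base words occur in another gene in 40.5% of cases, 27.8% in Klk1b5, with which it shares 95.1% of aligned coding bases. The 13 Klk1b genes matched Klk1 at 81.4% to 95.1% of coding bases, and the other kallikreins at 52.2% to 58.8%. Together, Klk1 and the Klk1b genes summed to 280 ± 119 TPM in knockout and 441 ± 52.5 TPM in wildtype (SD, 4 libraries each), of which the deposited table assigned 98.1% ± 0.60 and 98.7% ± 0.17 to Klk1. The sum over the family, which does not depend on how reads were split within it, ran from 142 to 405 TPM in knockout and 409 to 519 TPM in wildtype. It is nearly all Klk1 and does not cover sharing with genes outside the family. Knockout 2, whose TPM values were low across the table, stood at 225 TPM in this sum. In CPM, Klk1 in knockout 2 was at 69.7% of the wildtype mean. A pseudogene on the opposite strand, Gm10109, overlaps Klk1 and measured 0.55 to 1.63 CPM.

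Set per length against its substrate, Klk1 had 2.67, 6.08, 6.87 and 7.23 TPM per TPM of summed kininogen in knockout 1 to 4. The ratio was 3.87, 4.33, 5.19 and 3.89 in wildtype 1 to 4. In 3 of 4 knockouts it lay above all wildtype libraries, and in knockout 1 below them all, so the groups overlapped, with means of 5.71 ± 2.09 and 4.32 ± 0.62 (SD, 4 libraries each).

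Bdkrb2 encodes the constitutive B2 receptor (chr12:105563226-105595237, plus strand). Only 5, 6, 4 and 13 counts were assigned to it in knockout 1 to 4 and 5, 9, 26 and 5 in wildtype 1 to 4. Both groups were low and overlapped, with 0.39 ± 0.17 and 0.61 ± 0.47 CPM (SD, 4 libraries each). Bdkrb1, the gene of the inducible B1 receptor, follows 7847 bases further along the same strand, at chr12:105603085-105605428. It had 0, 2, 0 and 0 counts in knockout 1 to 4 and 2, 0, 0 and 3 in wildtype 1 to 4. A count of 0 allows up to 3 counts, or 0.145 to 0.208 CPM in these libraries, for counting error only, and neither gene entered the fit. A difference between genotypes in either receptor was not detectable at this depth. The receptor transcripts share no 31-base word with another gene.

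Mme encodes neprilysin, a kinin-degrading endopeptidase (chr3:63241537-63386030, plus strand). It measured 226.5, 213.6, 176.7 and 184.3 CPM in the knockouts (1 to 4) and 213.4, 233.1, 193.9 and 231.3 CPM in the wildtypes (1 to 4). The groups overlapped over most of their range. Means were 200.3 ± 23.6 and 217.9 ± 18.3 CPM (SD, 4 libraries each), and the log2 fold change was -0.12 ± 0.10 (SE), about the size of its error. It was -0.19 without knockout 1 and -0.07 without knockout 3.

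Of the 4 members in the fit, 1 (Kng2) was past the adjusted threshold of 0.05 and lower in knockout, a call made for 0.0485% of all genes tested (quasi-likelihood test of edgeR, p-values adjusted by Benjamini-Hochberg). The groups did not overlap, with knockout lower, in 3 (Kng2, Kng1 and Klk1), as in 2.06% of genes tested. The genes were chosen with this contrast known, so nothing is read from these counts.

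Per length, the order of levels was the same in both genotypes. Klk1 came first with 355 TPM (mean of 8 libraries), followed by Kng2 with 73.5 TPM, Mme with 13.8 TPM, Kng1 with 1.28 TPM, Bdkrb2 with 0.169 TPM and Bdkrb1 with 0.0219 TPM. No neighbours in this order overlapped, either over all libraries or within a genotype. Klk1 and Kng2 came closest in knockout 1, the lowest Klk1 library, with 138 TPM against 50.9 TPM, and the receptors nearly met, with 0.0847 TPM as the lowest Bdkrb2 value and 0.0804 TPM as the highest Bdkrb1 value. Among the 33578 genes detected in any library, Klk1 stood at the 98.9th percentile, Kng2 at 95.6, Mme at 82.3, Kng1 at 53.3 and the receptors at 32.3 and 12.1. Enzyme and substrate transcripts were thus high in the kidney on day 8 and receptor transcripts near the limit of detection.

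**Figure D2:**
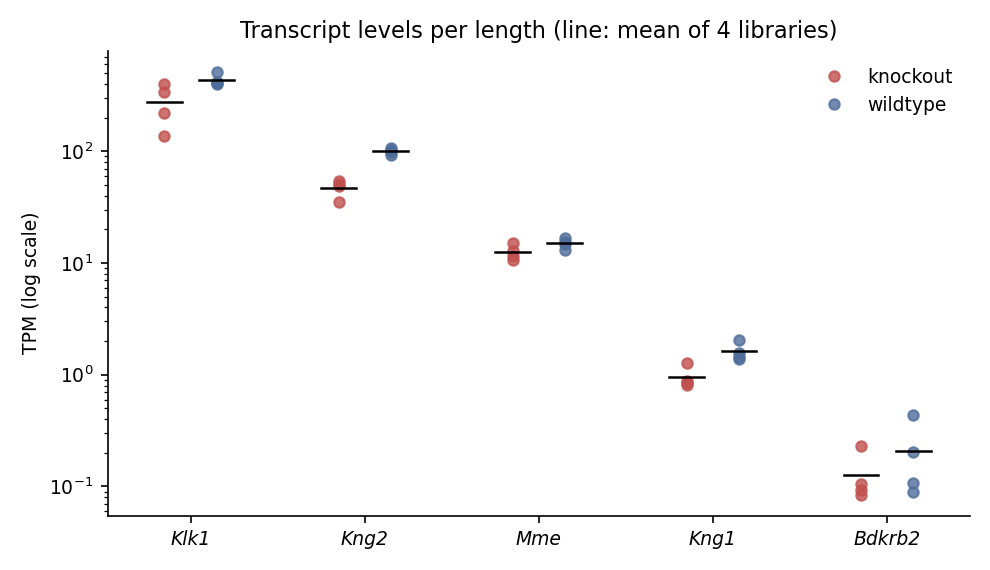
TPM on a log axis for 5 of the genes, with 1 point per library (knockout red, wildtype blue) and the mean of 4 libraries as a line. Levels step down from 355 TPM for Klk1 to 0.169 TPM for Bdkrb2 with no overlap between neighbouring genes, and Bdkrb1 is left out because 5 of its libraries are at 0.

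The rest of the pathway was looked at in 7 lists of 101 other genes, 70 of them tested. None was called in either direction by edgeR's quasi-likelihood test after adjustment over all genes, where 0.0809% of all genes were. At an unadjusted p under 0.05, 1 was higher (3.11% of all genes tested) and 6 were lower (3.08%). DESeq2 called 3, all lower, where it called 0.464% of all genes as lower. The median log2 fold change was -0.01, against 0.00 over all genes, with 32 positive and 38 negative values. In 4 of the 70 the knockouts lay below all wildtypes, where 2.06% of all genes did so.

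Of the kallikrein gene family besides Klk1, 6 of 25 genes were tested and none had an unadjusted p under 0.05 (edgeR). These genes were barely expressed: 21 of the 25 averaged under 1 CPM and 2 were at 0 in all libraries. Klk8, a trypsin-like kallikrein known from brain and skin, averaged 4.36 ± 0.93 CPM in the knockouts and 5.74 ± 0.15 CPM in wildtype (SD, 4 libraries each), and its groups did not overlap. Its log2 fold change was -0.40 ± 0.18 (SE), and -0.26 without knockout 2. The copies Klk1b5, at 2.59 ± 0.88 and 2.19 ± 0.53 CPM, and Klk1b3, at 1.35 ± 0.35 and 1.57 ± 0.34 CPM, overlapped and are uncertain because of their likeness to Klk1.

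Among 13 genes of the contact system and of kallikrein control, 8 were tested and 2 had an unadjusted p under 0.05, both lower in knockout, a result seen in 3.08% of all genes tested. Plau encodes urokinase, the plasminogen activator shed by kidney tubules into urine. It measured 701, 612, 705 and 693 CPM across knockout 1 to 4, against 874, 859, 867 and 848 CPM across wildtype 1 to 4. The groups lay well apart, with means of 678 ± 44.1 and 862 ± 11.2 CPM (SD, 4 libraries each) and a log2 fold change of -0.35 ± 0.07 (SE). Its adjusted p was 0.140 with edgeR's quasi-likelihood test and 4.75e-05 with DESeq2, and it ranged up to 0.756 over all alternatives. Plat, tissue plasminogen activator, measured 63.9, 86.5, 81.1 and 84.5 CPM in the knockouts (1 to 4) and 104, 101, 107 and 102 CPM in the wildtypes (1 to 4). Knockout 1 was the lowest library, and the log2 fold change was -0.39 ± 0.09 (SE), or -0.30 at its smallest with 1 library left out. The adjusted p of Plat was 0.318 with edgeR's quasi-likelihood test and 0.0278 with DESeq2, and reached 0.645 over the alternatives. Serpinf2, the plasmin inhibitor, overlapped between groups, at 32.5 ± 13.0 and 26.0 ± 2.95 CPM, and its log2 fold change of 0.32 was 0.02 without knockout 1. Coagulation factors F12 and F11, which start the plasma contact system, and Plg, A2m and Serpina5 averaged under 1 CPM.

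Of 18 kinin-degrading peptidases 16 were tested, with 6 positive and 10 negative log2 fold changes and a median of -0.02. At an unadjusted p under 0.05, 2 were lower and 0 higher, against 3.08% and 3.11% of all genes tested. Anpep, aminopeptidase N of the brush border, measured 278, 286, 310 and 266 CPM across knockout 1 to 4, against 368, 360, 324 and 351 CPM across wildtype 1 to 4. The groups did not overlap, the means were 285 ± 18.7 and 351 ± 19.2 CPM (SD, 4 libraries each) and the log2 fold change was -0.30 ± 0.07 (SE). Its adjusted p was 0.297 with edgeR's quasi-likelihood test and 0.0135 with DESeq2, and reached 0.757 over the alternatives. Cpm, carboxypeptidase M, which removes the C-terminal arginine of kinins, measured 99.5 ± 14.1 and 124 ± 8.56 CPM with overlapping groups (log2 fold change -0.31 ± 0.10, SE). Enpep, aminopeptidase A, overlapped as well, at 233 ± 15.0 and 258 ± 22.2 CPM. Angiotensin-converting enzyme, Ace, a main kininase of the brush border named here after its values were seen, measured 172 ± 24.6 and 174 ± 15.2 CPM.

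Downstream of the receptors, all 22 signalling genes were tested and their median log2 fold change was 0.00, with 11 positive and 11 negative. Gna11, a G protein subunit that couples receptors to phospholipase C, measured 115, 148, 85.1 and 132 CPM in the knockouts (1 to 4) and 84.7, 78.4, 94.3 and 91.4 CPM in the wildtypes (1 to 4). It was higher in 3 of 4 knockouts, and knockout 3 lay within the wildtype range. The log2 fold change was 0.46 ± 0.15 (SE) and the adjusted p 0.590 (edgeR's quasi-likelihood test). Ptgs2, the inducible cyclooxygenase, was at 8.42 CPM in knockout 1 and 2.41 to 3.48 CPM in the other knockouts, against 1.72 to 3.47 CPM in wildtype. Its log2 fold change of 0.75 was 0.22 without knockout 1. Pla2g4a, the phospholipase that frees arachidonic acid, measured 45.2 ± 6.83 and 57.8 ± 14.1 CPM with overlapping groups.

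All 7 genes of a list of ion channels, a pump and a channel-activating protease linked to tissue kallikrein were tested, with 3 positive and 4 negative values. The sodium channel subunit Scnn1a (70.2 ± 4.44 against 82.2 ± 8.55 CPM, knockout against wildtype) and the potassium pump Atp12a (57.3 ± 5.58 against 68.1 ± 8.77 CPM) had an unadjusted p under 0.05 with edgeR, both lower (3.08% of all genes tested) and both with overlapping groups. The subunit Scnn1b measured 117 ± 3.43 and 108 ± 5.90 CPM, higher in knockout in CPM, and its fold change turned to -0.04 at the lowest of the alternatives. Of the 3 tested genes of the cystatin superfamily, to which kininogens belong, and the 8 cathepsins and calpains that kininogen domains bind, none had an unadjusted p under 0.05 (edgeR). Cst3, the secreted cystatin C, measured 217 ± 38.5 and 237 ± 20.8 CPM, with a log2 fold change of -0.13, or -0.04 without knockout 1. The level of Ctsb, cathepsin B, was 454 ± 20.7 and 481 ± 13.6 CPM. Ctsz and Ctsc, lysosomal cathepsins, and Cstb, an intracellular cystatin, also overlapped between groups.

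**Figure D3:**
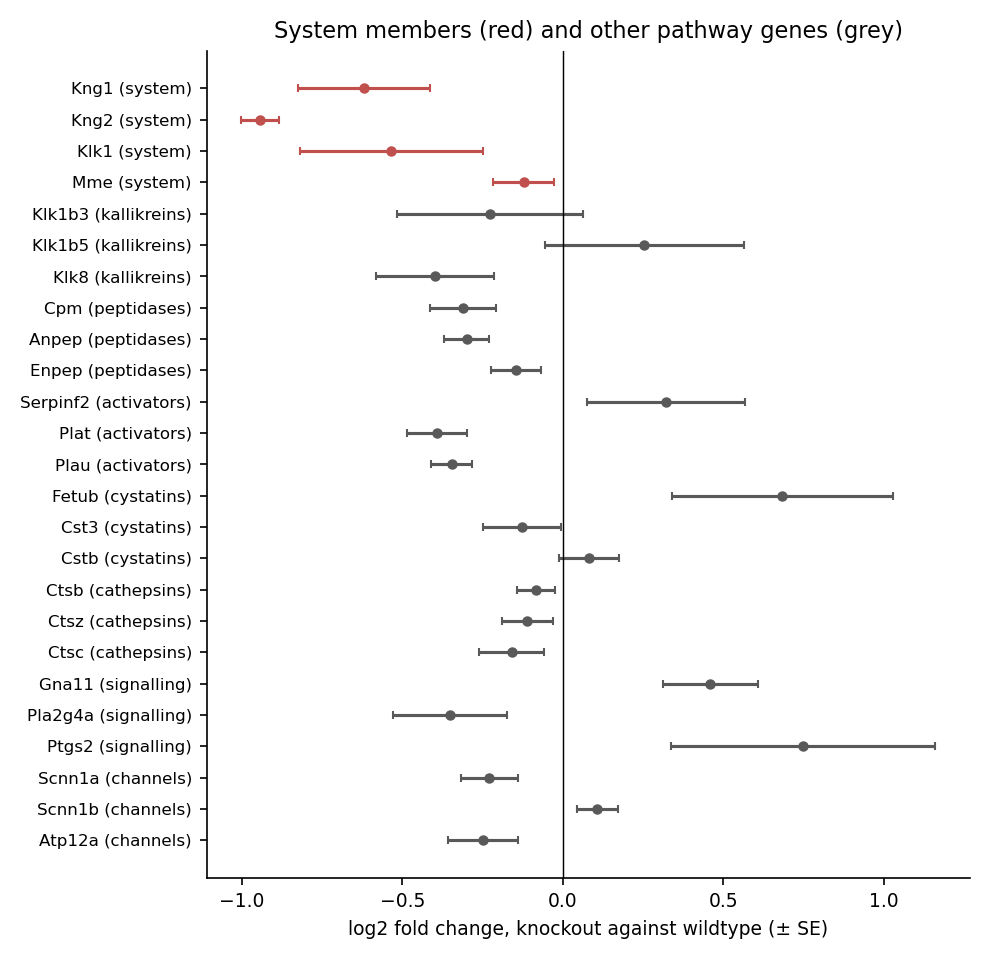
Log2 fold change, knockout against wildtype, with its standard error from the fit across 18548 genes, for the 4 members tested (red) and the named genes of the 7 pathway lists (grey). Kng2 lies farthest to the left at -0.94 with a short error bar, and the grey genes spread on both sides of 0.

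The chromosome 16 neighbourhood was examined because both kininogen genes lie there. Within 500 kb of Kng2, 14 further genes were tested. None was past the adjusted threshold (edgeR), 2 had an unadjusted p under 0.05 with knockout lower, as had 3.08% of all genes tested, and the median log2 fold change was -0.06. Those were Kng1, itself a member chosen with this contrast known, and St6gal1, a sialyltransferase gene 195 kb from Kng2. St6gal1 measured 47.5 to 50.8 CPM in knockout and 53.6 to 61.9 CPM in wildtype, with a log2 fold change of -0.27 ± 0.07 (SE). Eif4a2, a translation factor gene 78.0 kb away, had 521 ± 21.5 and 513 ± 35.2 CPM (SD, 4 libraries each) and a log2 fold change of 0.02 ± 0.07 (SE). On the other side, Dnajb11, a chaperone gene, had a log2 fold change of -0.06 ± 0.10 (SE). Fetub, which encodes fetuin B of the same protein superfamily, had the highest value of the window at 0.68 ± 0.34 (SE), from 1.27 ± 0.41 and 0.78 ± 0.18 CPM, with overlapping groups. The liver genes Ahsg and Hrg, also of that superfamily and in the same cluster, averaged under 1 CPM in both groups.

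The remaining tested genes of the window were Adipoq, Rfc4, Tbccd1, Dgkg, Masp1, Rtp4, BC106179, B630019A10Rik and Gm15651. Their log2 fold changes lay between -0.43 for B630019A10Rik and 0.27 for Masp1, each with overlapping groups. In this window the kininogens thus had the lowest values. Both were chosen with this contrast known, and the Kng1 value is uncertain because Kng1 shares sequence with Kng2. No tested gene lies between Kng1 and Kng2. The processed pseudogene Gm6493, inside Kng2 on the same strand, was at most at 1.08 CPM.

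**Figure D4:**
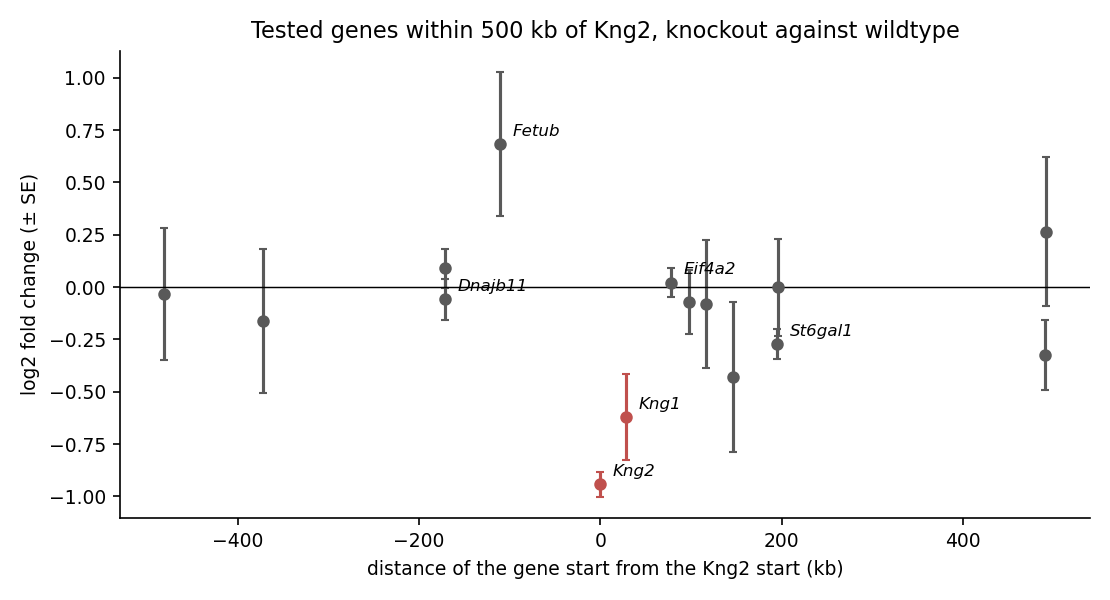
Log2 fold change with its standard error for the tested genes within 500 kb of Kng2, against the distance of each gene's start from the start of Kng2 in kb. Kng2 (-0.94) and Kng1 (-0.62) are in red, and the other genes lie between -0.43 and 0.68.

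Promoters, 250 bases before to 50 bases after the start in the RefSeq table of GRCm38.p6, were found for 5 of the 7 genes. Each motif was searched on both strands among 32851 promoters. The AP-2 motif gccnnnggc, searched because KCTD1 is known as a repressor of AP-2 factors, is in 16.6% of promoters. It had 1 match in 1 of 3 Mme promoters and no match in the windows of Kng2, Klk1, Klkb1 or Bdkrb2. The Kng2 window (chr16:23029052-23029351) and the Mme windows (chr3:63294961 to 63296144) lie inside the genes at the GENCODE coordinates given above. The bases before the GENCODE starts of Kng2 and Mme were therefore not searched. The 6-base hormone receptor motif tgttct, in 19.0% of promoters, had 1 match in the Kng2 window, 12 bases after the start. Neither the HNF1 core gttaat, in 7.10% of promoters, nor the estrogen-related receptor motif tcaaggtca, in 0.423%, nor the full palindromes that hold either of the 6-base motifs, in 0.00913% each, had a match in the member promoters.

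Kng2 values were set beside cell type markers as a description. A likeness between genotype differences in whole-kidney RNA cannot place a gene in a segment, and the lists were chosen with earlier results known. Slc12a3, which encodes the thiazide-sensitive salt transporter that defines the distal convoluted tubule, measured 271, 257, 202 and 257 CPM across knockout 1 to 4, against 435, 484, 453 and 483 CPM across wildtype 1 to 4. Knockout kidneys thus had 53.2% ± 6.66 of the wildtype mean of Slc12a3 and 52.0% ± 2.08 of that of Kng2 (SD, 4 libraries each). The log2 ratio of Kng2 to Slc12a3 was -0.84 ± 0.20 in knockout and -0.81 ± 0.10 in wildtype (SD, 4 libraries each), with overlapping groups. Against 4 genes chosen after their values were seen, the ratio did differ by more than the spread. It was 1.03 ± 0.18 and 1.51 ± 0.04 against the potassium channel Kcnj10, and -0.20 ± 0.17 and 0.30 ± 0.14 against the kinase Wnk4, both of the distal convoluted tubule. It was -0.97 ± 0.26 and -0.16 ± 0.24 against Calb1, the calbindin of the connecting tubule, and -3.69 ± 0.06 and -2.75 ± 0.03 against Slc34a1, the phosphate transporter of the proximal tubule.

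The distal convoluted tubule list as a whole was lower in knockout. Each of its 12 genes had a negative log2 fold change, with a median of -0.45, and 3 (Slc12a3, Pvalb and Sall3) were called lower by edgeR's quasi-likelihood test after adjustment over all genes, where 0.0485% of all genes were. Its summed level was 1184 to 1367 CPM in knockout and 1657 to 1788 CPM in wildtype. None of its genes was at 0 in all libraries. The podocyte list, at 737 to 922 and 972 to 1143 CPM, and the leukocyte list, at 94.7 to 103 and 109 to 115 CPM, did not overlap either. The part of these lists in the Kng2 result was not tested. Klk1 is known mainly from the connecting tubule, and its place was not examined here. The connecting tubule list had a median log2 fold change of 0.03 with 4 positive and 3 negative values. At an unadjusted p under 0.05 (edgeR), 1 of its 7 genes was lower and 0 higher. Its summed level averaged 1217 CPM for knockout against 1398 CPM for wildtype, with overlapping groups. Mean knockout levels ran from 75.5% of wildtype for S100g to 125% for Slc8a1, beside 69.1% for Klk1. The log2 ratio of Klk1 to S100g overlapped too, at -0.21 ± 0.44 (knockout) and -0.02 ± 0.18 (wildtype, SD of 4 libraries). So did its ratio to Calb1, at 0.26 ± 0.55 and 0.75 ± 0.33, and to Slc12a3, at 0.40 ± 0.78 and 0.10 ± 0.21. The part of the connecting tubule list in the Klk1 result was not tested.

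**Figure D5:**
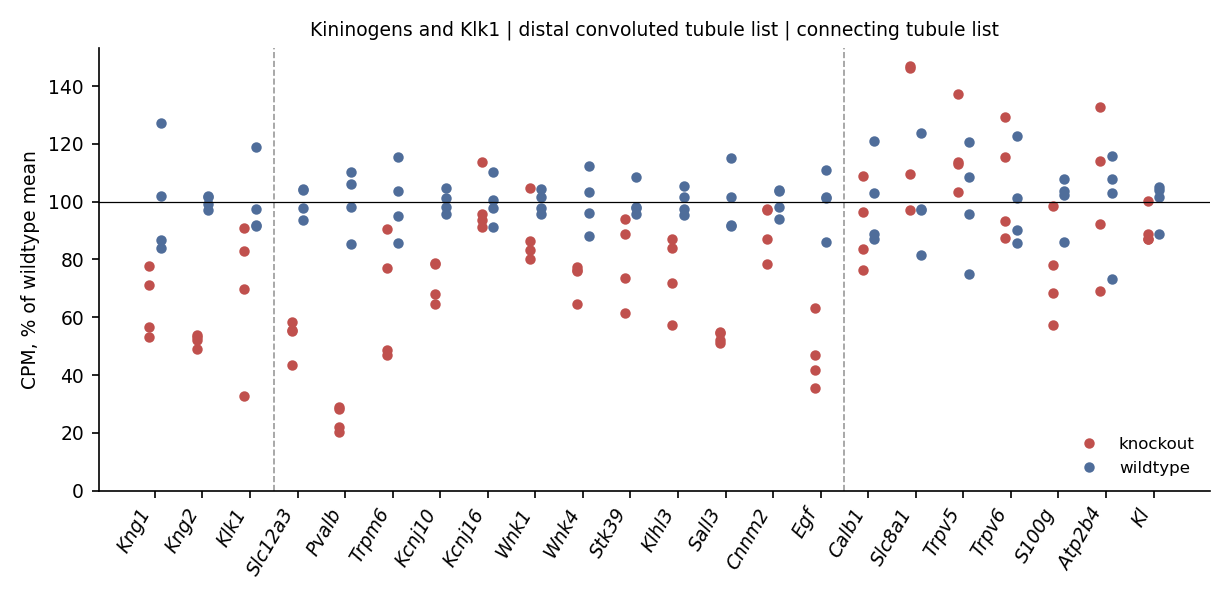
CPM of each library as a percentage of the wildtype mean of that gene (y axis, linear, from 0), for Kng1, Kng2 and Klk1, the 12 distal convoluted tubule markers and the 7 connecting tubule markers, with knockout red and wildtype blue. In the mean of the knockouts, Kng2 (52.0%), Slc12a3 (53.2%) and Sall3 (53.1%) sit at similar levels. Egf (46.9%) and Pvalb (24.9%) are lower, and the other markers of that tubule are higher, up to 98.6% for Kcnj16. The connecting tubule genes run from 75.5% for S100g to 125% for Slc8a1.

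Liver makes most plasma kininogen, so hepatocyte markers were read beside the kininogens. The list of 10 genes summed to 163 to 286 CPM in knockout and 146 to 183 CPM in wildtype. Of this, Ttr, also known from other epithelia, made 107 to 194 and 73.2 to 99.9 CPM, and its groups did not overlap. Of 8 genes tested, 3 were higher at an unadjusted p under 0.05 with edgeR (3.11% of all genes tested) and 0 lower. None was called by edgeR after adjustment. Knockout 1, with 31.7 CPM of Alb, had 3.02 CPM of Kng1 and 140.5 CPM of Kng2, within the range of the other knockouts for both genes. Of the pancreas and salivary gland markers, tissues rich in tissue kallikrein, 5 of 7 averaged under 1 CPM, and the acinar genes Prss2 and Bpifa2 were at 0 in all libraries. The list still summed to 47.4 to 62.4 CPM in knockout and 51.0 to 57.5 CPM in wildtype, with Cela1 and Amy1 as its most abundant genes.

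The genes most like Kng2 over the 8 libraries were sought among 12026 genes with a mean of at least 5 CPM, by Pearson's r of log2 CPM, as a description since the libraries share genotype and depth. They were Pvalb (r 0.983), Sall3 (0.982), Shd (0.975), Med17 (0.974) and Gpx6 (0.973), each lower on average in knockout. The size of the difference varied among them, from a log2 fold change of -0.18 for Med17 to -2.01 for Pvalb. When deviations from the genotype means were used in place of the values, none of these 5 was among the leading genes, which were Dao (0.987), Eef1g (0.971), Nfkbil1 (0.971), Sgf29 (0.964) and Ypel5 (0.961). On that scale r with Kng2 was 0.20 for Pvalb, -0.03 for Slc12a3, -0.17 for Klk1 and -0.21 for Mme. Kng2 was chosen with its difference between genotypes known, and r over all 8 libraries mostly reflects that difference. Of the 5 genes leading there, Pvalb and Sall3 are on the distal convoluted tubule list, and Shd, Med17 and Gpx6 are not. Within a genotype Kng2 varied little, by 3.99% of the mean in knockout and 2.34% in wildtype. Counting error alone gives 2.06% and 1.44%, so a weak r of deviations cannot show that genes are unrelated. The leading r of deviations are the highest of 12026 and were not tested.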

How the data were processed

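RNA was taken from whole kidneys and 200 ng of it made into strand-marking libraries with 15 PCR cycles, per the labels' protocols. The submitters' processing notes name Salmon, DESeq2 1.14.1 and the mm10 build. Those sources give no annotation release. The authors deposited estimated counts per gene, rounded to whole numbers, and TPM per gene with identifiers and symbols. The deposited count table carries no names and was joined by row order to the TPM table. As a check on 13251 genes, the SD over libraries of log2 count over TPM had a median of 7.4e-04, and 0.281 with rows shifted by 1. Counts therefore follow TPM up to factors per gene and library, and hold no information on isoforms.

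Genes kept by filterByExpr (18548) were fitted with genotype alone with edgeR 4.0.16 (quasi-likelihood test, TMM, robust, two-sided, Benjamini-Hochberg) under R 4.3.3. CPM values carry TMM factors. Depth was 14457760 to 20741076 counts per library, and the lowest chi-square between libraries of a group was 11.2 per degree of freedom, so none was counted as a repeat. The fit was also run on simulated counts, but the outcome is not given here and no result above rests on it.

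The members and lists were chosen with earlier results of these data known. Of 205 list symbols, 202 matched by symbol, 2 through current symbols and 1 did not. Named are the members, up to 3 genes per pathway list with the smallest p and at least 1 CPM, tested genes within 500 kb of Kng2, the 5 most like Kng2 by either measure, and the most abundant markers. Other genes are said to be chosen after their values were seen, and Alb, Xist, Rn18s-rs5, Ttr, Aqp2, Pvalb, Sall3, F12, F11, Plg, A2m, Serpina5, Ahsg, Hrg, Prss2, Bpifa2 and the overlapping pseudogenes were added in that way where they are not markers named by the rule.

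Sequences and coordinates came from GENCODE M21 (GRCm38), the assembly that mm10 denotes, and promoters from RefSeq. Alternatives were scaling by RLE, by upper quartiles or by totals, other filters, DESeq2 1.42.0, limma-voom and limma 3.58.1 on log2(TPM + 1) and log2(TPM + 0.1), a replicate block, each library left out in turn, both libraries with Xist reads left out, and ribosomal and mitochondrial rows left out.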

Additional observations from a re-analysis of the deposited data

Results flagged for a closer look

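Within each genotype, the highest or lowest of the 4 libraries was compared with the others as the gap to the nearest library divided by the whole range, against Dixon's 95% limit. Of 130 such groups 8 passed, where chance gives about 6.5. Among the members, Bdkrb1 passed in knockout at 1, since knockout 2 had 0.111 CPM and the others 0, and Bdkrb2 at 0.845, with 0.647 CPM in knockout 4 against 0.276 to 0.334 CPM. Knockout 2 was also the lowest for Plau (0.868, 612 against 693 to 705 CPM) and for the anion exchanger Slc26a4 (0.903, 50.2 against 66.8 to 68.6 CPM), and the highest for klotho, Kl (0.865, 459 against 398 to 406 CPM). Knockout 1 was the highest for Aqp2 (0.840, 478 against 149 to 202 CPM) and the lowest for amylase, Amy1 (0.842, 11.8 against 14.2 to 14.6 CPM). In wildtype, Rtp4, a gene of the Kng2 neighbourhood, passed at 0.943, with 6.25 CPM in wildtype 4 against 7.02 to 7.06 CPM. Klk1 in knockout 1 did not pass this limit.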

How the results depend on the processing

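The log2 fold change of Kng2 was negative in all 20 alternatives and past the adjusted threshold in 18. The exceptions were limma on log2(TPM + 1), at -1.07 (adjusted p 0.0702), and on log2(TPM + 0.1), at -1.09 (adjusted p 0.0647). There the median of all genes moved to -0.11 and -0.14, and relative to it Kng2 stood at -0.97 and -0.95. With 1 library left out it ran from -0.96 to -0.92. Klk1 ran from -0.69 to -0.30 and Mme from -0.19 to -0.07 in the same way. The number of genes called in the whole table, 15, depended more on the setting: it was 27 with no filter, 143 with DESeq2, 6 with each pseudocount of the TPM fits, 3 without the libraries with Xist reads, and 10 to 52 with 1 library left out (29 without knockout 3, 52 without wildtype 4). The causes were not tested. Among the pathway lists 0 genes were called and 0 with any library left out, but 3 with DESeq2. In CPM in place of TPM the Kng2 share of the kininogens was 97.6% in knockout and 98.0% in wildtype. With 1 library left out their summed TPM was 46.0 to 52.3 and 99.0 to 104. With the replicate number as a block 10 genes were called and the Kng2 value was -0.94. Same-numbered libraries correlated at 0.02, -0.08, 0.04 and 0.01 in their deviations from the group means, and 1 of 4 knockouts correlated best with its own number. No pairing by number was thus seen, which cannot show that same-numbered libraries were not handled together. Receptor levels are limited by depth.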
